A study of Rattus norvegicus with 15 samples.

Results

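The genes described here are those of antigen presentation and of the interferon response. They were chosen by gene symbol alone, from the genes of 3 deposited tables of adrenal medulla RNA-seq: the class I and class II genes of the rat major histocompatibility complex (named RT1), *B2m*, the Tap and *Tapbp* genes, the immunoproteasome subunits *Psmb8*, *Psmb9* and *Psmb10*, *Nlrc5*, the interferon receptor, Jak, Stat, Socs and Irf genes, the interferon-induced Ifi, Isg, Oas, Mx, Gbp and related genes, and the numbered Trim genes. The rule gave 89 of the 8621 genes in the tables. Each table compares 2 groups and lists only genes that had passed the authors' own threshold in that comparison, so every member was preselected for a difference in at least 1 comparison. The table of PCC vs. WT lists 79 members, that of HYP vs. WT 37 and that of PCC vs. HYP 40, and 10 are in all 3. Members that a table does not list were not analysed here for that comparison.

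The WT group (5 rats) is normal adrenal medulla of wildtype Sprague Dawley rats aged 7 to 9.5 months. HYP (5 rats) is hyperplastic adrenal medulla of MENX rats aged 4 to 5 months, and PCC (5 rats) is pheochromocytoma, a tumor of the chromaffin cells of the adrenal medulla, of MENX rats aged 7 to 9.5 months. The paper divides these tumors by gland weight into PCCs and advanced PCCs. The labels do not say which samples are which, so that split was not used. MENX is a strain in which a spontaneous homozygous mutation of *Cdkn1b*, which encodes the cell cycle inhibitor p27, is present in every cell, so the HYP and PCC groups share it. HYP and WT differ in age as well as genotype, as do HYP and PCC in age and stage, and these cannot be told apart. The medulla was freed of cortex by macrodissection and is bulk tissue, in which fewer cells of a type and less RNA per cell cannot be told apart.

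Cells show fragments of their own proteins on class I molecules, which pair an RT1 heavy chain with the light chain beta-2 microglobulin (*B2m*). The immunoproteasome cuts the fragments, the Tap transporter carries them into the endoplasmic reticulum, and tapasin (*Tapbp*) helps load them. Interferons bind their receptors and act through Jak kinases and Stat factors, which, together with Irf factors, switch on a large set of antiviral genes and raise class I presentation. Most nucleated cells can do both, and leukocytes and endothelial cells do so at high levels. Many Trim proteins are ubiquitin ligases, and only some of them belong to the interferon response.

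The samples held from 16315018 to 23831269 reads counted on genes. Levels are given as CPM (counts per 1000000 reads counted), after TMM scaling over the 5492 genes with counts in all 15 samples, and in the order of replicates 1 to 5. *Cdkn1b* itself was at 71.1, 58.6, 52.7, 55.3 and 45.5 CPM in WT, 99.0, 126, 96.7, 81.5 and 102 CPM in HYP and 176, 149, 132, 168 and 109 CPM in PCC, so the mutant transcript was counted in every MENX sample and the level does not mark the genotype by a loss. The chromaffin marker list was at 0.236 to 1.46 times the WT mean in WT (median over 9 genes), 1.42 to 2.80 times in HYP and 3.66 to 5.56 times in PCC. The cortex marker list (8 genes) was at 0.59 to 1.38 times the WT mean in WT, 0.285 to 0.722 times in HYP and 0.0221 to 0.352 times in PCC, so RNA of cortical cells was present in every group and was lowest in the tumors. WT replicate 5 had the lowest chromaffin level and PCC replicate 4 the lowest cortex level.

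The tables' 3 comparisons were fitted in edgeR by quasi-likelihood. The Benjamini-Hochberg adjustment took in all genes the authors had tested, which were 17454 for PCC vs. HYP, 18790 for PCC vs. WT and 18057 for HYP vs. WT, and a gene was called at an adjusted p under 0.05. Adjusted p-values below come from that test unless DESeq2 or another fit is named, and n = 5 per group unless samples were left out. The comparisons share samples (WT in 2 of them, HYP in 2 and PCC in 2), so their values are set side by side and are not independent of each other.

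Promoter letters show what some of the members share apart from their names. RefSeq promoters of the rat build GRCr8 (250 bases before to 50 bases after the annotated start) could be matched by symbol to 68 of the 89 members. The letters GAAA, 2 bases of any kind and GAAA again, on either strand (TTTC, 2 bases and TTTC when read on the other), are the core of the interferon-stimulated response element, a binding motif of Irf factors. They were present in 4.12% of the 27457 genes in the promoter table and in 21 of the 68 members. By role they were in 12 of 22 interferon-induced effectors, 6 of 13 class I genes, 1 of 3 Irf genes (*Irf7*), 1 of 5 receptors and sensors (*Ifih1*), 1 of 19 Trim genes (*Trim34*) and 0 of 6 Jak, Stat and Socs genes. The palindrome TTCNNNGAA, the core of the gamma-activated site, was in 9.39% of all genes and in 11 of the 68 members, 7 of them effectors. The 2 motifs can overlap, as in the promoter of *Bst2*. A match is a description of letters and not evidence of a bound site. The 150 bases before the start are shown for 8 members with a match that lies wholly within them. They read 5′ to 3′ in the direction of the gene, with each such run of 10 bases in capitals. The 8 are those named by the rule given under data processing. *Gbp2*, *Gbp4*, *Gbp5*, *Ifih1*, *Ifitm2*, *Isg20* and *RT1-S3*, also mentioned below, have such a match and are not shown. The stretches shown come from effectors (*Ifit3*, *Bst2* and *Ifi27*), from the regulator *Irf7* and from class I genes (*Psmb10*, *Tap1*, *Tapbp* and *B2m*).
Ifit3: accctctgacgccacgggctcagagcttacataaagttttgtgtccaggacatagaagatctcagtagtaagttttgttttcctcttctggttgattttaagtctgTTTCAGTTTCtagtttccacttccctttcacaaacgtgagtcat
Bst2: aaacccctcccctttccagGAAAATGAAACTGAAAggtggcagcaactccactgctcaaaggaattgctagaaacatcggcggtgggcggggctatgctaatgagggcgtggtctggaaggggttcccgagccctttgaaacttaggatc
Ifi27: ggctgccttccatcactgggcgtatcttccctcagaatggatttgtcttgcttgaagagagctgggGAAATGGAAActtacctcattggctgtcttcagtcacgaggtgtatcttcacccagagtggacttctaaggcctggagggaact
Irf7: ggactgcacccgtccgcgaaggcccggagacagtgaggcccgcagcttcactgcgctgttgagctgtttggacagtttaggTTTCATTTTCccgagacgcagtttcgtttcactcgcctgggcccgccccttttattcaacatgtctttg
Psmb10: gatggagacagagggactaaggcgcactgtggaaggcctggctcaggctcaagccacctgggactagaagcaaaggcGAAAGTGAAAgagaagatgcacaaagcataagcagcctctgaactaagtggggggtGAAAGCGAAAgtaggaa
Tap1: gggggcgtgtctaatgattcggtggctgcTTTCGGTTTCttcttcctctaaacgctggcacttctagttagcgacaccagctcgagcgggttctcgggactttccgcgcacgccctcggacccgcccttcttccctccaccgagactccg
Tapbp: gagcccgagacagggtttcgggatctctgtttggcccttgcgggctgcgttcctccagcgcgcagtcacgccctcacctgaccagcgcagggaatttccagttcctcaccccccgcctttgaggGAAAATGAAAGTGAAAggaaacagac
B2m: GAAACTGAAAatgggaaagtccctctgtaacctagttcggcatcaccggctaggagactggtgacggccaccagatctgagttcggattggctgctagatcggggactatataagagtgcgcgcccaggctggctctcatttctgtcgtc
In GRCr8 these stretches are chr1:241527176-241527325, plus strand (*Ifit3*), chr16:18254968-18255117, minus strand (*Bst2*), chr6:128355162-128355311, plus strand (*Ifi27*), chr1:205800024-205800173, minus strand (*Irf7*), chr19:50743293-50743442, minus strand (*Psmb10*), chr20:4668544-4668693, minus strand (*Tap1*), chr20:4967878-4968027, minus strand (*Tapbp*) and chr3:129549180-129549329, plus strand (*B2m*). The match begins 44 bases before the start in *Ifit3* and 69 bases before it in *Irf7*. *Bst2*, *Psmb10* and *Tapbp* each hold 2 matches, which share letters in *Bst2* and *Tapbp* and lie apart in *Psmb10*. *Psmb8* also had a match, which runs across its annotated start and is therefore not shown.

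Members were lower far more often than higher in the step from hyperplasia to tumor. For PCC vs. HYP 38 of the 40 listed members passed the filter on low counts, of which 22 were called lower and 2 higher, where 22.6% of all 3148 genes tested were called lower and 21.8% higher. The median log2 fold change was -0.90 over the members and 0.43 over all genes tested. The 22 calls rest partly on single samples: there were 9 without HYP replicate 4, and 13 without HYP replicate 3 or 5. The 2 called higher, *Ifitm5* among them, became 5 without PCC replicate 5 and 1 in each of 8 other fits without a sample, the exception being PCC replicate 1. Scaling to library totals recovered from the FPKM gave 14 lower and 5 higher, and scaling to the total of listed counts 12 lower and 4 higher.

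Against WT, 76 of 79 listed members passed the filter in the PCC comparison, with 34 called lower and 26 higher, against 38.5% of all 7001 genes tested called lower and 46.7% higher. The members' median was -0.62 and that of all genes 0.44. For HYP vs. WT 36 of 37 passed, with 16 called lower and 12 higher, against 32.5% and 39.5% of 4108 genes, and the medians were -0.58 and -0.37. Without WT replicate 1 the 16 fell to 9. Scaling to the total of listed counts, which moved the log2 fold change of all genes by a median of 0.50 for tumor against WT, 0.46 for hyperplasia against WT and 0.15 for tumor against hyperplasia, turned the splits into 15 lower and 28 higher for PCC vs. WT and 1 lower and 15 higher for HYP vs. WT. Recovered library totals, with median shifts of 0.29, 0.19 and 0.22, gave 23 lower and 28 higher, and 8 lower and 14 higher. Directions below are those on the TMM scale, and the roles within the list are described separately. The CPM ranges of the 2 groups did not overlap for 45 of the 76 members tested for PCC vs. WT (63.5% of all genes tested), 21 of the 36 for HYP vs. WT (55.8%) and 24 of the 38 for PCC vs. HYP (53.5%).

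**Figure D1:**
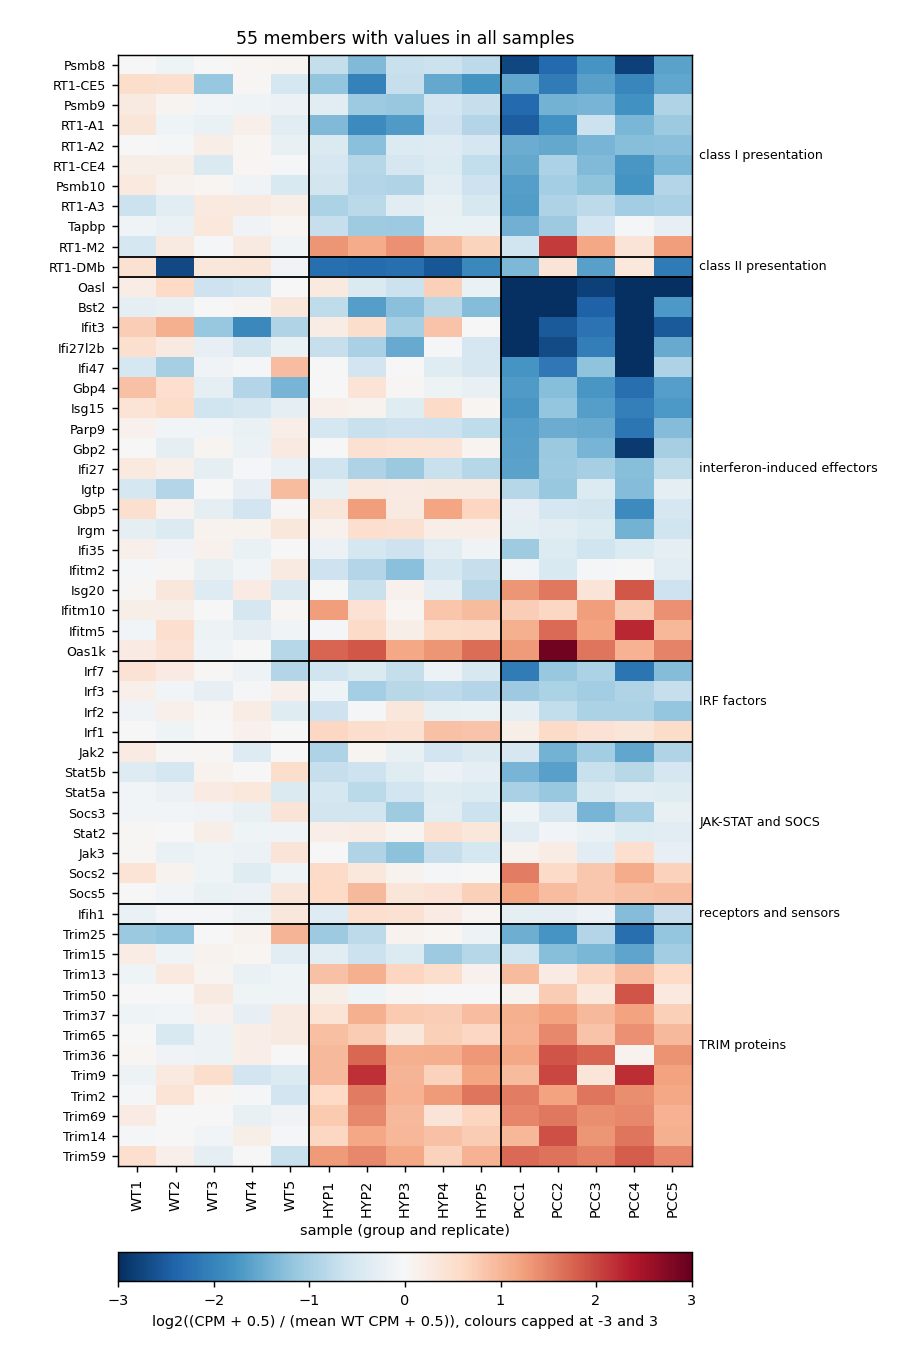
Heat map of 55 of the 57 members with values in all 15 samples: rows are genes grouped by role, columns are samples, and colour is log2 of CPM plus 0.5 relative to the mean of the WT samples, capped at -3 and 3. Most class I genes are blue from HYP onward, a block of effectors from *Oasl* to *Gbp2* is blue only in PCC or deepest there, and most Trim genes are red in HYP and PCC.

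The heat map shows 3 main patterns by role. Of the 10 class I genes in it, 8 had means that fell from WT to HYP and again to PCC, against 40.9% of the 5492 genes with values in all samples. Of the 19 effectors 8 had their highest mean in HYP, against 7.56% of all genes. Their HYP means were 1.02 (*Gbp4*) to 1.77 (*Gbp5*) times the WT means, and their PCC means 0.095 (*Oasl*) to 0.68 (*Irgm*) times. None of the 8 was called for HYP vs. WT in an edgeR fit over all 15 samples, and DESeq2 called *Gbp5* higher (adjusted p = 0.0246). The pattern is thus mainly a fall in PCC and not a clear peak in HYP. Of the 12 Trim genes 10 rose at each step, against 44.0% of all genes. Over all 57 members, 23 fell at each step and 16 rose at each step.

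**Figure D2:**
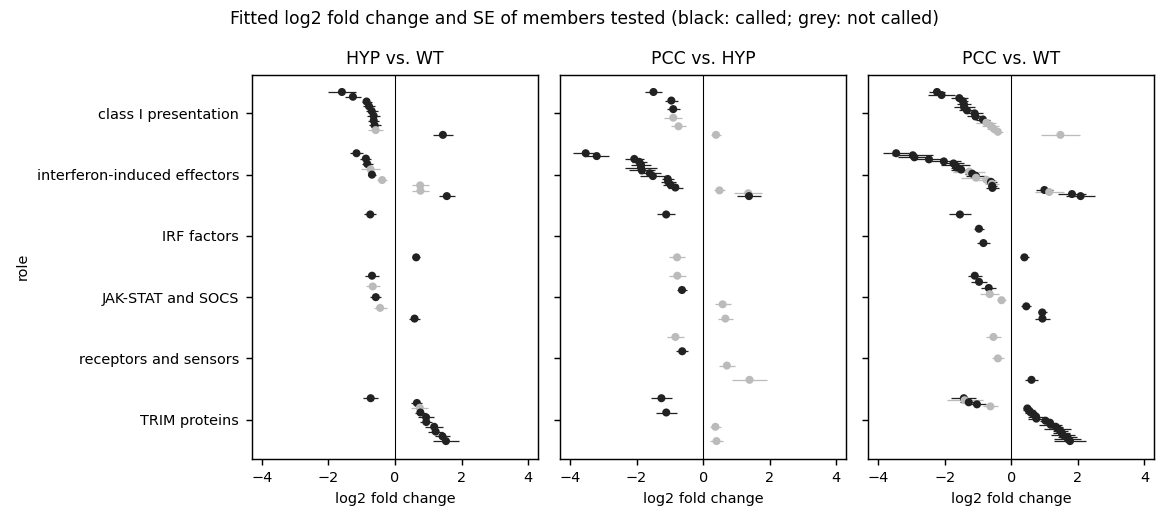
Fitted log2 fold change of the members tested, 2 left out (points) with its SE (bars), by role (vertical axis) and comparison (panels), black where called and grey where not. Points of class I genes and effectors lie mostly left of 0, with *Oasl* at -3.53 for PCC vs. HYP, and those of Trim genes mostly right of 0 in both comparisons with WT.

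The plot of fold changes by role shows how unevenly the roles are spread. No interferon gene itself is listed in any table, so the signal's source was not analysed here, and the account starts with the receptors.

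Receptors and sensors gave few calls. *Ifnar2*, a chain of the type I interferon receptor, was listed for PCC vs. HYP only. It was at 18.7, 20.6, 21.1, 19.4 and 17.9 CPM in HYP and 17.1, 11.3, 13.5, 12.4 and 14.0 CPM in PCC (log2 fold change -0.63 ± 0.18 (SE), adjusted p = 0.049). Every PCC sample was below every HYP sample, and the call was lost in 9 of 10 fits that left out 1 sample (adjusted p up to 0.118). *Ifngr1* and *Ifngr2*, the chains of the interferon gamma receptor, had fitted values of opposite sign for PCC vs. WT. *Ifngr1* was at 104, 103, 132, 164 and 144 CPM in WT and 125, 103, 99.6, 68.2 and 102 CPM in PCC, with overlapping groups and no call by edgeR (log2 fold change -0.40 ± 0.17 (SE), adjusted p = 0.107, 95% interval -0.74 to -0.07), and a positive value under scaling to the total of listed counts. By DESeq2 *Ifngr1* was called lower (adjusted p = 0.0234). *Ifngr2* was at 20.3, 18.0, 24.9, 20.4 and 39.9 CPM in WT and 39.9, 33.5, 40.3, 45.3 and 30.8 CPM in PCC, and rose (log2 fold change 0.61 ± 0.20 (SE), adjusted p = 0.0341). WT replicate 5 lay among the PCC samples, and the call was lost in 7 of 10 fits that left out 1 sample (adjusted p up to 0.118). The rise of *Ifngr2* was not called by DESeq2 (adjusted p = 0.0536).

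Of the remaining members of this role, *Ifnlr1* (a lambda interferon receptor chain) and the RNA sensors *Dhx58* and *Ifih1* were not called by edgeR. For PCC vs. HYP their log2 fold changes were 1.39 ± 0.52, 0.71 ± 0.23 and -0.83 ± 0.26. DESeq2 called *Ifih1* lower in PCC against both other groups (adjusted p = 0.0154 against WT and 0.00978 against HYP), and did not call *Ifnlr1* and *Dhx58*. PCC replicate 4 had the lowest *Ifih1* level of all 15 samples, 9.37 CPM, where the others ranged from 14.5 to 34.3 CPM.

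*Stat2*, a factor of type I interferon signalling, had its highest levels in HYP. *Stat2* was at 125, 124, 137, 111 and 114 CPM in WT, 140.4, 144, 129.7, 169 and 155 CPM in HYP and 97.6, 116, 107, 95.5 and 97.8 CPM in PCC. It was called for PCC vs. HYP (log2 fold change -0.64 ± 0.14 (SE), adjusted p = 0.024), where the groups did not overlap, and lost there without HYP replicate 4 (adjusted p = 0.0622), without HYP replicate 5 (adjusted p = 0.0558), without PCC replicate 3 (adjusted p = 0.0592). For PCC vs. WT it was not called by edgeR (log2 fold change -0.29 ± 0.14 (SE), adjusted p = 0.179) and was called lower by DESeq2 (adjusted p = 0.0103). Scaling to the total of listed counts turned its sign there. *Jak2*, a kinase bound to the interferon gamma receptor and to several cytokine receptors, was at 113, 98.7, 98.3, 73.4 and 94.9 CPM in WT, 49.9, 102, 82.3, 64.5 and 70.5 CPM in HYP and 67.0, 35.6, 46.3, 32.4 and 51.1 CPM in PCC. All PCC samples were below all WT samples (log2 fold change -1.10 ± 0.22 (SE), adjusted p = 0.0028). HYP and PCC overlapped and were not called apart by edgeR (log2 fold change -0.78 ± 0.25 (SE), adjusted p = 0.0768), whereas DESeq2 called *Jak2* lower in PCC (adjusted p = 0.0123).

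The Socs genes encode feedback inhibitors of cytokine signalling and did not move as one. *Socs3* was at 7.26, 7.24, 7.16, 6.60 and 10.3 CPM in WT, 5.14, 5.15, 3.43, 6.14 and 4.79 CPM in HYP and 6.96, 5.39, 2.60, 3.62 and 6.50 CPM in PCC. It fell in HYP (log2 fold change -0.69 ± 0.21 (SE), adjusted p = 0.041), a call lost in 9 of 10 fits that left out 1 sample (adjusted p up to 0.127). For PCC vs. WT *Socs3* was not called by edgeR (log2 fold change -0.65 ± 0.29 (SE), adjusted p = 0.125) and was called lower by DESeq2 (adjusted p = 0.0267). *Socs2*, known as a brake on growth hormone signalling, and *Socs5* rose in PCC. *Socs2* was at 46.3, 37.6, 31.9, 27.0 and 32.2 CPM in WT and 102, 52.5, 61.7, 76.1 and 57.3 CPM in PCC (log2 fold change 0.94 ± 0.23 (SE), adjusted p = 0.00897). *Socs5* was at 37.3, 35.4, 32.7, 33.2 and 48.2 CPM in WT, 56.6, 73.7, 48.1, 50.9 and 61.2 CPM in HYP and 85.7, 71.3, 65.9, 69.6 and 71.5 CPM in PCC (log2 fold change 0.93 ± 0.14 (SE), adjusted p = 0.000696). For both, every PCC sample was above every WT sample. Among the Jak, Stat and Socs members tested for PCC vs. WT, those called lower included *Jak2*, *Stat5a* and *Stat5b*, and those called higher were *Socs2*, *Socs5* and *Socs6*.

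The Irf factors divided in the same way. *Irf7*, a factor that amplifies type I interferon responses, was at 69.2, 60.2, 51.8, 46.0 and 27.3 CPM in WT. It was at 33.5, 37.7, 30.6, 44.7 and 36.1 CPM in HYP and 11.5, 22.8, 26.1, 10.7 and 20.2 CPM in PCC. No PCC sample reached the WT or HYP range (log2 fold change -1.54 ± 0.34 (SE), adjusted p = 0.00512 against WT, and log2 fold change -1.11 ± 0.26 (SE), adjusted p = 0.0268 against HYP). The second call was lost in 4 of 10 fits that left out 1 sample (adjusted p up to 0.0691). WT replicate 5, the lowest of its group, was below every HYP sample.

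*Irf3*, which acts ahead of interferon production, was at 312, 265, 238, 276 and 313 CPM in WT, 255, 138, 156, 163 and 151 CPM in HYP and 131, 145, 135, 149 and 173 CPM in PCC. PCC and WT did not overlap (log2 fold change -0.97 ± 0.16 (SE), adjusted p = 0.000937), whereas HYP had a log2 fold change of -0.74 ± 0.18 against WT, with HYP replicate 1 among the WT samples. *Irf3* overlaps *Bcl2l12* on the opposite strand, and the library protocol describes no step that keeps strand, so reads in the shared stretch cannot be assigned. *Irf1*, a factor induced by interferon gamma that drives class I genes, went the other way. *Irf1* was at 46.5, 41.8, 45.5, 50.7 and 45.8 CPM in WT, 70.8, 66.5, 63.4, 84.6 and 83.4 CPM in HYP and 52.3, 68.8, 62.5, 58.9 and 67.3 CPM in PCC. No HYP or PCC sample was as low as any WT sample (log2 fold change 0.64 ± 0.12 (SE), adjusted p = 0.00544 for HYP against WT, and log2 fold change 0.39 ± 0.14 (SE), adjusted p = 0.0446 for PCC against WT). The PCC vs. WT call was lost in 9 of 10 fits that left out 1 sample (adjusted p up to 0.11) and was not made by DESeq2 (adjusted p = 0.0532). The HYP vs. WT call held in each fit without 1 sample.

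*Irf2* was lower for PCC vs. WT, with a log2 fold change of -0.84 ± 0.20 and overlapping groups.

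The interferon-induced effectors held the deepest falls of the list, and for most of these the fall came between HYP and PCC. For PCC vs. HYP 13 of 16 tested effectors were called lower and 1 higher, with a median of -1.56, and 14 of the 16 had groups without overlap, against 53.5% of all genes tested. Of all genes tested there, 22.6% were called lower and 21.8% higher, with a median of 0.43. The 13 became 6 without HYP replicate 4 and 8 without HYP replicate 3. Of 22 tested for PCC vs. WT, 14 were called lower and 3 higher (median -1.12), against 38.5% and 46.7% of all genes tested (median 0.44). Under the scaling to the total of listed counts those became 7 lower and 4 higher, and for PCC vs. HYP 9 lower and 2 higher. In HYP vs. WT 9 were listed, of which 4 were called lower and 1 higher, against 32.5% and 39.5% of all genes tested.

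*Oasl*, an antiviral protein of the oligoadenylate synthetase family (chr12:47444104-47456894 in Rn06, minus strand), was at 114, 148, 63.7, 65.4 and 98.5 CPM in WT. It was at 121, 72.3, 62.8, 160.5 and 84.9 CPM in HYP and 9.19, 8.52, 13.6, 3.57 and 11.8 CPM in PCC. WT and HYP covered the same range, and every PCC sample was below every other sample (log2 fold change -3.53 ± 0.38 (SE), adjusted p = 0.00157 for PCC vs. HYP, and log2 fold change -3.46 ± 0.39 (SE), adjusted p = 0.000173 for PCC vs. WT). Its promoter in the table held neither set of letters.

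*Ifit3*, which binds foreign RNA together with its family members (chr1:252906234-252911373, plus strand), was at 53.4, 67.3, 14.3, 8.05 and 16.9 CPM in WT, 37.1, 46.0, 15.8, 58.0 and 32.3 CPM in HYP and 2.60, 5.15, 6.53, 2.76 and 5.17 CPM in PCC. WT replicates 1 and 2 were high and WT replicates 3 to 5 low, so the WT group spread over both ends of the HYP range, and all PCC samples lay below (log2 fold change -3.20 ± 0.38 (SE), adjusted p = 0.00164 for PCC vs. HYP, and log2 fold change -2.96 ± 0.62 (SE), adjusted p = 0.00397 for PCC vs. WT). *Isg15*, a ubiquitin-like protein joined to other proteins in antiviral defence (chr5:173624310-173626248, minus strand), was at 61.4, 67.7, 30.4, 32.3 and 37.3 CPM in WT, 51.2, 49.5, 35.7, 68.9 and 47.8 CPM in HYP and 13.2, 20.3, 14.2, 10.7 and 13.5 CPM in PCC. It had the same split of the WT replicates and the same gap to PCC (log2 fold change -1.92 ± 0.23 (SE), adjusted p = 0.00164 for PCC vs. HYP, and log2 fold change -1.74 ± 0.31 (SE), adjusted p = 0.00175 for PCC vs. WT). The calls of *Oasl*, *Ifit3* and *Isg15* in both comparisons held when any 1 sample was left out.

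**Figure D3:**
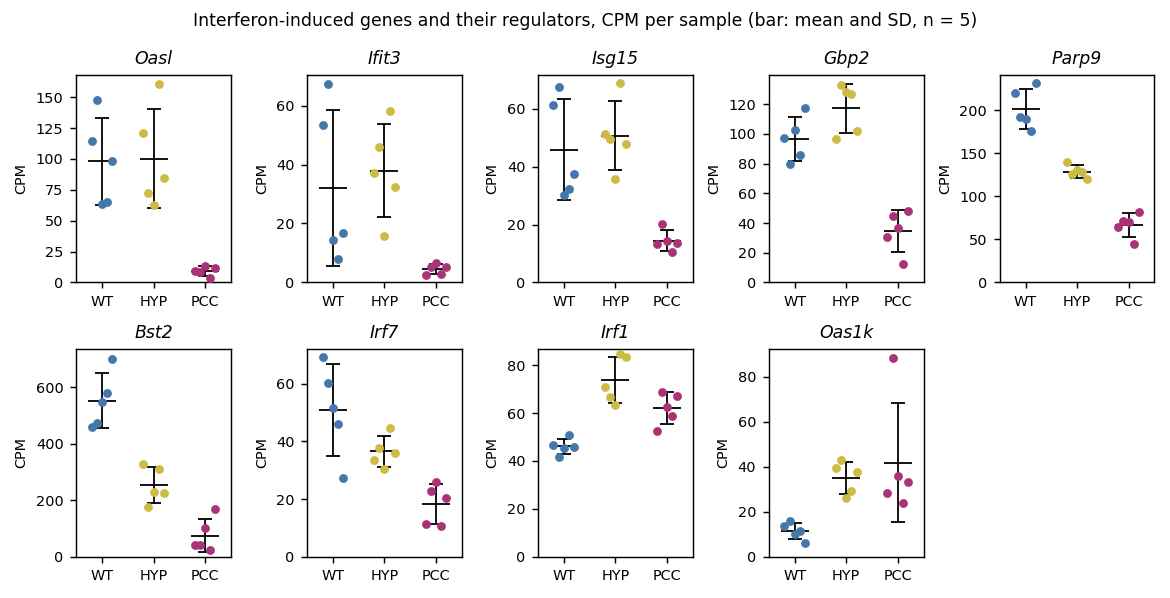
CPM per sample (vertical axis, linear from 0) of 9 interferon-induced genes and regulators in WT, HYP and PCC (horizontal axis), with points for samples and bars for the mean and SD of 5. *Oasl*, *Ifit3*, *Isg15* and *Gbp2* lie in the same range in WT and HYP and lower in PCC, *Parp9*, *Bst2* and *Irf7* have lower means at each step, and *Irf1* and *Oas1k* are higher in HYP and PCC than in WT.

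The plot of interferon-induced genes by sample also includes *Gbp2* and *Parp9*, which were named after their values were seen. *Gbp2*, a guanylate-binding protein of the response to interferon gamma, was at 97.1, 80.0, 103, 85.6 and 117 CPM in WT, 96.9, 133, 128, 127 and 102 CPM in HYP and 30.6, 44.6, 36.6, 12.7 and 48.2 CPM in PCC. WT and HYP overlapped and PCC lay below both, with replicate 4 the lowest (log2 fold change -1.87 ± 0.31 (SE), adjusted p = 0.00702 for PCC vs. HYP). The related *Gbp4* and *Gbp5* had log2 fold changes of -2.07 ± 0.29 and -1.60 ± 0.34 for PCC vs. HYP, both called without overlap, and *Gbp3* stayed below the filter with at most 2 counts in any WT sample. These genes are close relatives, and reads from alike stretches may have been split among them.

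*Bst2*, or tetherin, which holds budding viruses at the cell surface, fell at both steps. It was at 461, 474, 549, 582 and 703 CPM in WT, 329, 177, 230.1, 312 and 225 CPM in HYP and 42.0, 41.1, 102, 23.2 and 168 CPM in PCC. The 3 groups did not overlap (log2 fold change -1.16 ± 0.20 (SE), adjusted p = 0.00281 for HYP vs. WT). The log2 fold changes of PCC were -1.87 ± 0.48 against HYP and -2.91 ± 0.48 against WT. *Ifi27*, an interferon-induced mitochondrial protein, was at 372, 339, 251, 293 and 266 CPM in WT, 199.7, 160.0, 141, 191 and 167 CPM in HYP and 100.2, 142, 152, 125 and 178 CPM in PCC. It fell in HYP without overlap (log2 fold change -0.88 ± 0.17 (SE), adjusted p = 0.00495), while HYP and PCC overlapped. *Parp9*, which adds ADP-ribose in interferon signalling, went from 175 to 232 CPM in WT to 119.5 to 139 CPM in HYP and 44.2 to 81.3 CPM in PCC, again with 3 groups apart.

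The effectors called higher for PCC vs. WT were *Oas1k*, *Ifitm5* and *Ifitm10*, the last named after its values were seen. *Ifitm10*, of the interferon-induced transmembrane family, was at 6.26, 6.20, 5.47, 3.69 and 5.66 CPM in WT, 13.8, 7.50, 5.70, 10.1 and 11.0 CPM in HYP and 9.38, 8.71, 13.8, 9.66 and 15.0 CPM in PCC (log2 fold change 1.00 ± 0.25 (SE), adjusted p = 0.0106), with every PCC sample above every WT sample. *Isg20*, an interferon-induced exonuclease also named after its values were seen, was at 9.92, 12.4, 7.22, 11.5 and 6.97 CPM in WT, 9.66, 5.88, 10.6, 7.86 and 5.15 CPM in HYP and 24.6, 29.8, 12.6, 36.1 and 6.12 CPM in PCC. PCC replicates 1, 2 and 4 were high and replicate 5 was below the whole WT group. It was not called by the edgeR fits of single tables (log2 fold change 1.35 ± 0.42 (SE), adjusted p = 0.0713 for PCC vs. HYP) and was called higher in PCC against both other groups in the edgeR fit over 15 samples (adjusted p = 0.0366 against WT and 0.0262 against HYP). DESeq2 called it higher against WT only (adjusted p = 0.0467). *Oas1k*, another member of the oligoadenylate synthetase family, was at 13.6, 15.7, 10.3, 11.3 and 6.10 CPM in WT, 39.4, 42.9, 26.2, 29.3 and 37.5 CPM in HYP and 28.2, 88.3, 35.8, 23.9 and 33.0 CPM in PCC. It rose without overlap in HYP (log2 fold change 1.56 ± 0.25 (SE), adjusted p = 0.00205) and in PCC (log2 fold change 1.82 ± 0.42 (SE), adjusted p = 0.00622), with PCC replicate 2 far above the other 4. *Oas1k* overlaps *Oas1e* on the opposite strand, so reads in the shared stretch cannot be told apart. *Oas1e* itself had a log2 fold change of -1.26 ± 0.48 for PCC vs. WT, not called by edgeR and called lower by DESeq2 (adjusted p = 0.018). *Ifitm5*, known from bone more than from interferon signalling, was low in every group. Its values were 0.522, 1.04, 0.478, 0.396 and 0.508 CPM in WT, 0.565, 1.12, 0.735, 1.09 and 1.12 CPM in HYP and 1.76, 3.03, 2.03, 4.71 and 1.68 CPM in PCC. It rose over WT (log2 fold change 2.08 ± 0.43 (SE), adjusted p = 0.00378) and over HYP (log2 fold change 1.38 ± 0.36 (SE), adjusted p = 0.0393), the second call being lost in 8 of 10 fits that left out 1 sample (adjusted p up to 0.109).

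Among the class I genes most calls were of lower levels, in HYP as well as in PCC. For HYP vs. WT 8 of 10 tested members were called lower and 1 higher (median -0.67), for PCC vs. WT 10 of 15 lower and none higher (median -1.10), and for PCC vs. HYP 3 of 6 lower and none higher (median -0.90). Of all genes tested, 32.5%, 38.5% and 22.6% were called lower in these comparisons, in the same order, and 39.5%, 46.7% and 21.8% higher. The medians of all genes tested were -0.37, 0.44 and 0.43. The 8 lower for HYP vs. WT became 4 without WT replicate 1, 5 without WT replicate 2 and 3 with recovered library totals, and the 3 lower for PCC vs. HYP became 5 without PCC replicate 5. By edgeR 1 member was higher at an unadjusted p under 0.05 in each of the latter comparisons (*RT1-M2* and *RT1-S3*), and DESeq2 called none higher. The edgeR fit over 15 samples called *RT1-M2* higher for PCC vs. WT (adjusted p = 0.0368). The 5 members not called by edgeR for PCC vs. WT had fitted log2 fold changes from -0.75 (*B2m*) to 1.48 (*RT1-M2*). By DESeq2 14 of the 15 were called lower in that comparison. Scaling to the total of listed counts left 6 lower and 1 higher for PCC vs. WT, and 0 lower and 1 higher for HYP vs. WT, where 9 of the 10 fitted values stayed below 0.

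Among the immunoproteasome subunits *Psmb8* fell at both steps. These subunits replace those of the constitutive proteasome and change the fragments made for class I. *Psmb8* was at 90.2, 82.2, 89.8, 95.1 and 95.8 CPM in WT, 54.6, 36.0, 56.4, 57.7 and 52.3 CPM in HYP and 13.2, 17.5, 26.3, 12.6 and 29.3 CPM in PCC. The 3 groups did not overlap, and the fall was called in all 3 comparisons (log2 fold change -0.86 ± 0.15 (SE), adjusted p = 0.00351 for HYP against WT, log2 fold change -1.49 ± 0.27 (SE), adjusted p = 0.00934 for PCC against HYP, and log2 fold change -2.23 ± 0.24 (SE), adjusted p = 0.000147 for PCC against WT). None of these calls was lost when any 1 sample was left out.

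*Psmb9* was at 142, 125, 113, 108 and 105 CPM in WT, 95.5, 55.0, 54.0, 79.9 and 72.6 CPM in HYP and 22.9, 43.7, 44.5, 33.1 and 62.9 CPM in PCC. WT lay above both other groups, which overlapped (log2 fold change -0.78 ± 0.18 (SE), adjusted p = 0.0133 for HYP vs. WT, and log2 fold change -1.56 ± 0.26 (SE), adjusted p = 0.00115 for PCC vs. WT), and the second step was not called by edgeR (log2 fold change -0.90 ± 0.27 (SE), adjusted p = 0.0596). *Psmb10* was at 107, 93.4, 89.9, 80.5 and 62.4 CPM in WT, 59.3, 47.2, 45.8, 67.8 and 56.0 CPM in HYP and 27.2, 42.2, 37.2, 24.8 and 46.9 CPM in PCC. Its HYP samples overlapped both other groups, and the log2 fold changes were -0.70 ± 0.18 (adjusted p = 0.0192 by edgeR), -0.74 ± 0.21 (adjusted p = 0.0539) and -1.33 ± 0.24 (adjusted p = 0.00181) for HYP against WT, PCC against HYP and PCC against WT. For PCC vs. HYP, DESeq2 called both *Psmb9* and *Psmb10* lower (adjusted p = 0.00535 and 0.00442).

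*Psmb9*, *Tap1* and *Psmb8* lie next to each other on chromosome 20 of Rn06, at chr20:3973420-3978845 (minus strand), chr20:3979035-3989669 (plus strand) and chr20:3990613-3993769 (plus strand). Of the 16 class I members 13 are on that chromosome. *Tap1*, a subunit of the peptide transporter, was at 88.7, 77.6, 75.4, 65.1 and 57.1 CPM in WT and 23.6, 27.1, 42.5, 32.4 and 53.8 CPM in PCC. All PCC samples were below all WT samples (log2 fold change -1.08 ± 0.25 (SE), adjusted p = 0.00675). *Tap1* was not listed for the comparisons with HYP, and its partner *Tap2* was in no table.

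*Tapbp* was at 113, 108, 153, 115 and 128 CPM in WT, 76.8, 58.2, 57.7, 108 and 107 CPM in HYP and 45.3, 57.8, 82.4, 121 and 104 CPM in PCC. It fell in HYP (log2 fold change -0.64 ± 0.20 (SE), adjusted p = 0.0462), with WT replicate 2 level with HYP replicates 4 and 5 and the call lost in 8 of 10 fits that left out 1 sample (adjusted p up to 0.136). For PCC vs. WT *Tapbp* was not called by edgeR (log2 fold change -0.62 ± 0.25 (SE), adjusted p = 0.0856) and was called lower by DESeq2 (adjusted p = 0.0309). *Nlrc5*, the main transcriptional activator of class I genes, was at 34.6, 27.2, 34.2, 22.2 and 39.8 CPM in WT and 14.2, 16.3, 24.8, 14.4 and 20.2 CPM in PCC. It fell (log2 fold change -0.85 ± 0.21 (SE), adjusted p = 0.00939), although PCC replicate 3 was above WT replicate 4. *B2m* was at 1947, 1982, 1931, 2652 and 3210 CPM in WT and 2616, 1248, 1295, 929 and 1020 CPM in PCC. PCC replicate 1 lay among the WT samples and the other 4 below all of them, and the difference was not called by edgeR (log2 fold change -0.75 ± 0.30 (SE), adjusted p = 0.0857, 95% interval -1.34 to -0.16). With DESeq2 *B2m* was called lower (adjusted p = 0.0124).

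**Figure D4:**
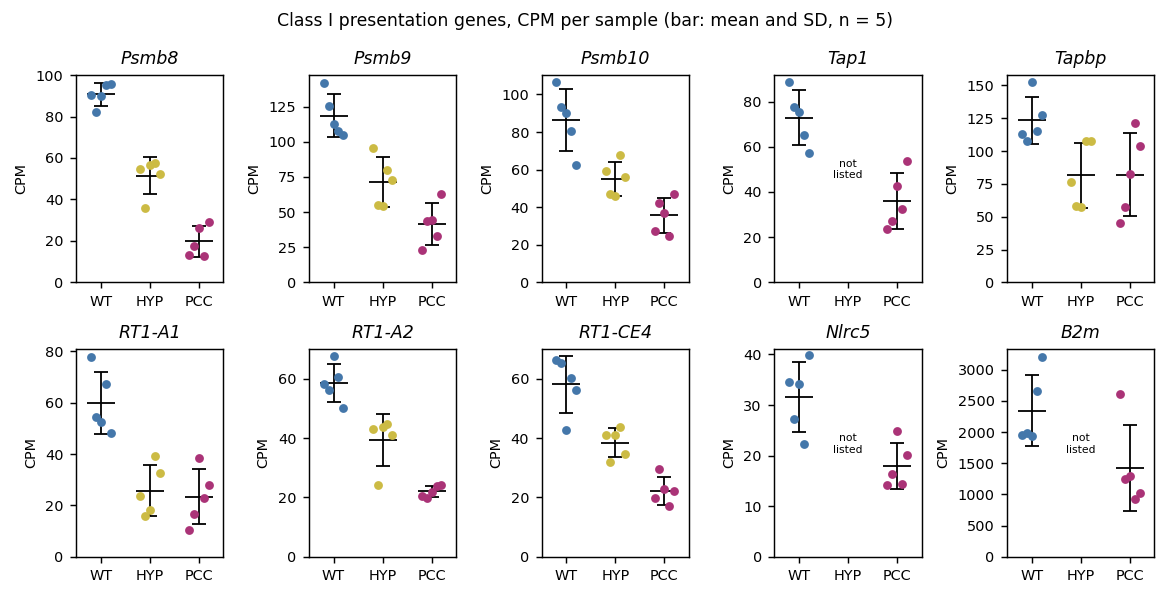
CPM per sample (vertical axis, linear from 0) of 10 class I presentation genes in WT, HYP and PCC (horizontal axis), with points for samples and bars for the mean and SD of 5; "not listed" marks a group without values. *Psmb8* steps down from WT through HYP to PCC without overlap, *RT1-A1* is lower in HYP and PCC alike, and the PCC samples of *Tapbp* spread over the WT and HYP ranges.

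The plot of class I genes by sample includes the heavy chains, which present the fragments. *RT1-A1*, a classical heavy chain gene, was at 77.6, 54.5, 52.4, 67.3 and 48.4 CPM in WT, 23.5, 15.7, 18.1, 39.1 and 32.6 CPM in HYP and 10.4, 16.8, 38.4, 23.0 and 28.0 CPM in PCC. It was lower in HYP than in WT without overlap (log2 fold change -1.26 ± 0.25 (SE), adjusted p = 0.00607), and PCC overlapped the HYP range. *RT1-CE4* was at 66.2, 65.4, 42.9, 60.2 and 56.1 CPM in WT, 41.2, 32.0, 41.1, 43.6 and 34.6 CPM in HYP and 19.8, 29.7, 22.9, 17.0 and 22.4 CPM in PCC. It was lower in HYP than in WT with overlapping groups (log2 fold change -0.64 ± 0.17 (SE), adjusted p = 0.0225), and lower again in PCC than in HYP without overlap (log2 fold change -0.90 ± 0.19 (SE), adjusted p = 0.0188), a call lost without HYP replicate 4 (adjusted p = 0.0532). *RT1-CE5* was at 9.87, 9.66, 2.81, 6.86 and 4.50 CPM in WT, 2.70, 1.29, 3.98, 2.01 and 1.58 CPM in HYP and 1.95, 1.20, 1.84, 1.38 and 1.94 CPM in PCC. The PCC samples all lay below WT (log2 fold change -2.10 ± 0.39 (SE), adjusted p = 0.00217).

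*RT1-A2* and *RT1-A3*, named after their values were seen, had log2 fold changes of -1.45 ± 0.15 and -1.10 ± 0.24 for PCC vs. WT, both called without overlap. Values of single heavy chain genes are uncertain. *RT1-A2* lies inside the annotated span of *RT1-A1* on the same strand, *RT1-CE4*, *RT1-CE5* and *RT1-CE7* overlap each other, and alike copies may share reads. *RT1-M2*, a class I gene outside the classical set, ran against the others at a low level. It was at 0.474, 1.18, 0.849, 1.19 and 0.799 CPM in WT, 3.01, 2.52, 3.12, 2.18 and 1.73 CPM in HYP and 0.418, 5.54, 2.60, 1.33 and 2.84 CPM in PCC. It rose in HYP without overlap (log2 fold change 1.44 ± 0.30 (SE), adjusted p = 0.00771), while the PCC samples spread from below to far above WT.

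Of the class II genes, which leukocytes use to show fragments of outside proteins, *RT1-DMb* was the only one in any table. It was at 3.99, 0, 3.66, 3.76 and 2.54 CPM in WT, 0.188, 0.168, 0.184, 0.0573 and 0.357 CPM in HYP and 0.789, 3.80, 0.567, 3.57 and 0.258 CPM in PCC. WT replicate 2 had a count of 0, below every HYP sample, and PCC replicates 2 and 4 were in the range of the other WT samples while the other 3 were not. It did not pass the filter on low counts. Without the filter edgeR called it lower in HYP than in WT (log2 fold change -3.83, adjusted p = 0.00929) and higher in PCC than in HYP (log2 fold change 3.01, adjusted p = 0.0368), as did DESeq2, on few reads per sample. *Cd74*, *Ciita* and the RT1-B and RT1-D chain genes were in none of the tables and were not analysed here.

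Most of the Trim genes tested against WT were called higher. For HYP vs. WT 8 of 10 were called higher and 1 lower (median 0.94), where 39.5% of all genes tested were called higher and 32.5% lower. For PCC vs. WT 17 of 22 were called higher and 3 lower (median 0.89), where the shares were 46.7% and 38.5%. Only 4 were tested for PCC vs. HYP, 2 of them called lower and none higher by edgeR, with 0 higher at an unadjusted p under 0.05 and 0 called higher by DESeq2. Of all genes tested there, 22.6% were called lower and 21.8% higher by edgeR. The count of 2 lower became 0 without HYP replicate 3, 4 or 5 or PCC replicate 2, and 1 without any other sample. The counts for PCC vs. WT under the scaling to the total of listed counts were 17 higher and 1 lower, and without WT replicate 5 and PCC replicate 4, left out together after the data were seen, 13 higher and 3 lower.

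*Trim9* and *Trim36*, both known from neurons, rose most in HYP. *Trim9* was at 1.14, 1.70, 2.12, 0.726 and 0.871 CPM in WT, 3.07, 7.78, 3.19, 2.41 and 3.62 CPM in HYP and 3.02, 6.74, 1.84, 7.95 and 3.66 CPM in PCC (log2 fold change 1.53 ± 0.39 (SE), adjusted p = 0.019 for HYP vs. WT). HYP replicate 2 was far above the other HYP samples, and PCC replicate 3 lay within the WT range. *Trim36* was at 1.95, 1.66, 1.59, 2.18 and 1.82 CPM in WT, 4.08, 7.28, 4.41, 4.47 and 5.30 CPM in HYP and 4.73, 8.09, 7.28, 2.00 and 5.47 CPM in PCC. All HYP samples were above all WT samples (log2 fold change 1.43 ± 0.22 (SE), adjusted p = 0.0018), and among PCC samples replicate 4 was in the WT range.

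*Trim59*, whose level is known to go with proliferation in tumors, was at 5.55, 4.21, 3.02, 3.83 and 2.18 CPM in WT, 9.79, 11.0, 8.95, 6.37 and 8.26 CPM in HYP and 13.4, 12.8, 11.7, 14.6 and 11.2 CPM in PCC. The 3 groups lay apart, with a call for PCC vs. WT (log2 fold change 1.69 ± 0.29 (SE), adjusted p = 0.00131) but not for PCC vs. HYP, where the log2 fold change was 0.40 ± 0.20. *Trim46*, a microtubule organizer of the axon, was at 7.83, 5.49, 4.78, 4.42 and 1.60 CPM in WT and 10.8, 24.8, 15.3, 16.7 and 14.8 CPM in PCC. Every PCC sample was above every WT sample (log2 fold change 1.70 ± 0.41 (SE), adjusted p = 0.00777).

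The lower Trim genes were few. *Trim15* was at 10.9, 8.43, 9.92, 9.57 and 7.19 CPM in WT, 7.15, 5.71, 6.80, 4.07 and 4.84 CPM in HYP and 5.89, 3.51, 3.26, 2.76 and 4.22 CPM in PCC. It fell in HYP without overlap (log2 fold change -0.73 ± 0.22 (SE), adjusted p = 0.0382), a call lost in 7 of 10 fits that left out 1 sample (adjusted p up to 0.0951), and in PCC (log2 fold change -1.28 ± 0.26 (SE), adjusted p = 0.00338). *Trim34*, the 1 of 19 Trim members in the promoter table with the response element letters, was at 60.3, 48.3, 36.6, 35.1 and 44.2 CPM in WT and 14.4, 31.2, 25.6, 14.7 and 27.5 CPM in PCC. It fell without overlap (log2 fold change -1.03 ± 0.28 (SE), adjusted p = 0.0149). *Trim16* was at 3.01, 3.53, 3.74, 3.79 and 3.72 CPM in HYP and 1.81, 1.59, 2.70, 0.856 and 1.94 CPM in PCC (log2 fold change -1.11 ± 0.31 (SE), adjusted p = 0.048), with no overlap, and the call was lost in 10 of 10 fits that left out 1 sample (adjusted p up to 0.108).

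*Trim25*, which activates the RNA sensor RIG-I and was named after its values were seen, was at 54.9, 53.3, 120.0, 128 and 243 CPM in WT, 56.0, 69.9, 129, 124 and 107 CPM in HYP and 43.0, 34.8, 65.2, 24.5 and 53.1 CPM in PCC. WT replicates 1 and 2 lay within the PCC range and WT replicate 5 far above it. PCC had a log2 fold change of -1.43 ± 0.38 against WT and of -1.25 ± 0.31 against HYP, both called. *Trim50* did not pass the filter, with at most 3 counts in any WT sample and 1.52 CPM in PCC replicate 4, the highest value.

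**Figure D5:**
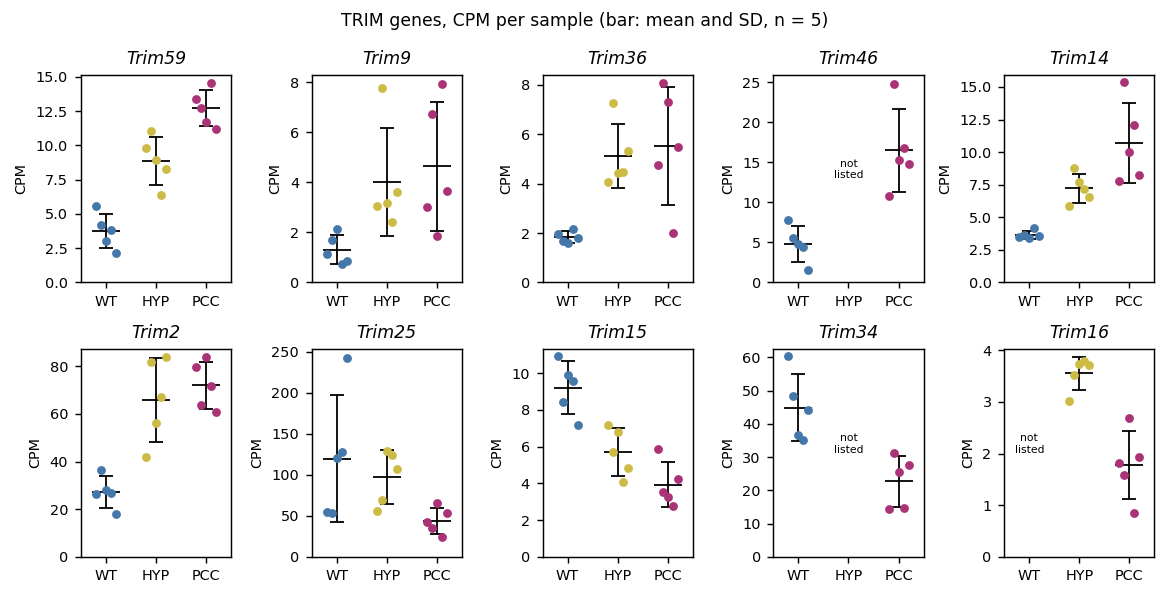
CPM per sample (vertical axis, linear from 0) of 10 Trim genes in WT, HYP and PCC (horizontal axis), with points for samples and bars for the mean and SD of 5; "not listed" marks a group without values. *Trim59* steps up without overlap, *Trim14* and *Trim2* are above WT in every HYP and PCC sample, and *Trim15*, *Trim34* and *Trim16* have all PCC samples below the group they were compared with.

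The plot of Trim genes by sample shows the rising genes in the upper row and, from *Trim25* on, the falling ones. In WT, per length, the class I light chain and a few effectors were the most abundant members. By the authors' FPKM (fragments per kilobase of gene, scaled to depth), *B2m* was at 1144 ± 112 (SD), *Bst2* at 761 ± 34.7, *Ifi27* at 543 ± 149.8 and *Ifi27l2b* at 519 ± 206. In PCC, *Bst2* was at 126 ± 102 and *B2m* at 820.0 ± 287 FPKM, so *B2m* was above *Bst2* in both groups.

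No member called higher by the edgeR fits of single tables held the response element letters. In the edgeR fit over 15 samples *Isg20* and *Ifitm2*, which hold them, were called higher for PCC vs. HYP (adjusted p = 0.0262 and 0.0158). *Ifitm2* was named after its values were seen. The counts below are those of the fits of single tables. In both comparisons of PCC the letters were about as frequent in members called lower as in those not called. For PCC vs. WT they were in 11 of 28 members called lower, 0 of 19 called higher and 6 of 13 not called, among members with a promoter in the table. The PCC vs. HYP figures were 10 of 19 called lower, 0 of 1 called higher and 5 of 10 not called. Those for HYP vs. WT were 6 of 15 called lower, 0 of 7 called higher and 1 of 6 not called. The members called higher are mostly Trim genes, which seldom hold the letters at all.

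Other genes of these pathways, from a list of 41 that the symbol rule does not cover, were listed for 16 genes and moved both ways. Of 14 tested for PCC vs. WT, 6 were called lower and 6 higher, near the 38.5% and 46.7% of all genes tested. Lower were *Cxcl10*, an interferon-induced chemokine (log2 fold change -2.97, adjusted p = 0.00713, by edgeR), *Cd1d1*, which presents lipids (log2 fold change -1.82, adjusted p = 0.00379), *Fcgrt*, the neonatal Fc receptor with a class I fold (log2 fold change -1.85, adjusted p = 0.00572), *Helz2*, *Myd88* and *Ctsl*. Among the higher were *Mr1*, a class I-like molecule that presents vitamin metabolites (log2 fold change 2.28, adjusted p = 0.00113), *Cd274*, the ligand of PD-1 (log2 fold change 1.18, adjusted p = 0.0214), *Rfx5*, *Adar* and *Lgals3bp*. Of 7 tested for PCC vs. HYP, 3 were called lower (*Cxcl10*, *Herc6* and *Rtp4*, all interferon-induced) and none higher by edgeR or DESeq2, with 1 higher at an unadjusted p under 0.05 by edgeR. Of all genes tested there, 22.6% were called lower and 21.8% higher by edgeR. For HYP vs. WT 4 of 10 were called higher and 3 lower, near the 39.5% and 32.5% of all genes tested.

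Markers of other cells also differed between the groups, and not all in the same direction. Of 13 lymphocyte and leukocyte markers 4 were listed in any table. *Cd8a* and *Nkg7* summed to 2.54 to 8.10 CPM in WT, 3.19 to 4.70 CPM in HYP and 0.951 to 2.60 CPM in PCC, and both were called lower for PCC vs. WT. *Cd3d* had a count of 0 in PCC replicates 1 and 4. Of 17 macrophage and other myeloid markers only *Cd163* and *Cd14* were listed, at 30.6 to 40.7 CPM together in WT, 48.1 to 56.8 CPM in HYP and 10.4 to 61.1 CPM in PCC. For PCC vs. WT *Cd163* was called higher and *Cd14* lower. Of 10 endothelial markers 6 were listed, and they summed to 471 to 583 CPM in WT, 320.0 to 394 CPM in HYP and 195 to 360.0 CPM in PCC, 5 being called lower for PCC vs. WT and 1 higher (*Vwf*). The cortex markers fell as given above. Their part in the changes of the class I genes and effectors was not tested. Leaving out WT replicate 5 and PCC replicate 4 together, after the data were seen, gave 36 members called lower and 20 higher for PCC vs. WT. Class I then had 12 members called lower and effectors 14.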

How the data were processed

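RNA-seq of 15 rat adrenal medullas was analysed from 3 tables, 1 for each pair of groups. Samples were grouped by their labels, with 5 replicates per group, each from 1 rat. The authors mapped clean paired-end reads to the rat genome Rn06 with HISAT2 2.0.5 and compared groups with DESeq2, and featureCounts 1.5.0-p3 is named in the submitters' processing notes. Each deposited table holds raw read counts per gene, which are the values used for all tests. The normalized signal deposited beside them is the count divided by a size factor per sample, and served to recover the size factors. The deposited FPKM values served to recover library totals (from each gene's count, FPKM and length, as a median over genes of 20 or more counts) and for levels between genes. The authors' log2 fold changes were not used, and the authors' p-values (raw and adjusted) were used to recover how many genes had been tested. No count of a gene differed between tables.

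Counts were analysed in R 4.3.3 with edgeR 4.0.16 (limma 3.58.1): filterByExpr, TMM over the listed genes, glmQLFit and glmQLFTest, with the Benjamini-Hochberg adjustment taking n as all genes the authors had tested. The SE is the log2 fold change divided by the square root of F, and the 95% interval is 1.96 SE to each side. The scripts were tested on simulated counts. The filter on low counts removed 3, 1 and 2 members (*Trim50*, *Gbp3* and *Oas1h* for PCC vs. WT, *RT1-DMb* for HYP vs. WT, *Trim50* and *RT1-DMb* for PCC vs. HYP). Depth ranged from 16315018 to 23831269 reads per sample. Python 3.11.15, pandas 2.3.3, numpy 2.4.6, scipy 1.17.1 and matplotlib 3.10.9 were used for summaries and plots (pseudocount 0.5 for log2 CPM).

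The members, role lists and other lists were chosen with earlier results of these data known. Genes named with values were 30 set anchors where listed (17 were), and, per role and comparison, the 2 called members that rose most and the 2 that fell most among those with no overlap of groups and a mean of at least 1 CPM. Others are said to have been named after their values were seen. Alternatives were DESeq2 1.42.0, other scalings, no filter, 1 fit over all 15 samples, adjustment over tested genes only, a replicate block and leaving out each sample. Motifs were searched on both strands of RefSeq promoters (GRCr8). Tests of the list against other genes were not made. The values of 2 members and of 1 gene outside the rule are not reported here, though counts include them.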

Additional observations from a re-analysis of the deposited data

Results flagged for a closer look

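Of 105 groups of 5 samples examined among the named members, 8 held a sample whose gap to its nearest neighbour, divided by the range of the group, was above Dixon's 95% critical value of 0.71. Chance gives about 1 in 20 such groups. In PCC, *B2m* stood out in replicate 1 at 2616 CPM (next highest 1295), *Oas1k* in replicate 2 at 88.28 CPM (next highest 35.84) and *Socs5* in replicate 1 at 85.68 CPM (next highest 71.55). In HYP, *Psmb8* was lowest in replicate 2 at 36.05 CPM (next lowest 52.26), *Trim9* highest in the same replicate at 7.78 CPM (next highest 3.62) and *Irf3* highest in replicate 1 at 255.4 CPM (next highest 162.8). In WT, *Socs3* was highest in replicate 5 at 10.31 CPM (next highest 7.26) and *Ifitm5* in replicate 2 at 1.042 CPM (next highest 0.5219).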

How the results depend on the processing

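Scaling to the total of listed counts gave 15 lower for PCC vs. WT, 1 lower for HYP vs. WT, and 12 lower and 4 higher for PCC vs. HYP, and recovered library totals gave 8 lower for HYP vs. WT, and 14 lower and 5 higher for PCC vs. HYP. Both shift all genes alike, as given above. For PCC vs. HYP the members called higher were also 9 with adjustment over tested genes only and 7 in the fit over 15 samples, where other members were tested. Leaving out 1 sample gave 18 to 24 higher and 32 to 36 lower for PCC vs. WT, 9 to 14 higher and 9 to 15 lower for HYP vs. WT, and 1 to 5 higher and 9 to 21 lower for PCC vs. HYP. DESeq2, the authors' size factors, no filter, and leaving out WT replicate 5 and PCC replicate 4 together kept each count over all members within 1.5 times that reported. With DESeq2, 48 of 79 members were called lower for PCC vs. WT, in place of 34 of 76. Of the 15 class I members 14 were called lower in that comparison, in place of 10. Counts by role moved further in places. Class I members called lower for PCC vs. HYP were 5 with DESeq2 and with no filter in place of 3, effectors called higher for PCC vs. WT were 6 with DESeq2 and 5 with no filter in place of 3, and Trim genes called lower for PCC vs. WT were 5 with DESeq2 in place of 3. The cause of these differences was not tested. Of the named members' log2 fold changes, those of *Ifngr1* (0.10) and *Stat2* (0.21) for PCC vs. WT turned positive under scaling to the total of listed counts, and no other one changed sign under any alternative.

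Replicate numbers were shared by the groups. Deviations of samples with the same number had correlations of both signs (from -0.25 to 0.28), and the labels name no pairing. These correlations cannot show whether samples with the same number shared any handling. With a replicate block, 8 members were called lower and 0 higher for PCC vs. HYP, 34 lower and 20 higher for PCC vs. WT, and 11 lower and 12 higher for HYP vs. WT. The block gave 6 effectors and 1 class I member called lower for PCC vs. HYP, and 4 class I members lower for HYP vs. WT. Genes near 1 CPM (*RT1-M2* and *Ifitm5* in WT) rest on few reads per sample, and the tables limit the list to genes that had passed a threshold on these same samples.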
